A study of Mus musculus with 3 samples.

Results

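Nuclear receptors are transcription factors that bind DNA and, in many cases, a small fat-soluble ligand such as a steroid, a bile acid or a thyroid hormone. The set described here holds 41 mouse nuclear receptor genes, all chosen by name, with Hnf4a and the retinoic acid receptors left out. They were 41 of the 28038 gene names with a value on every array. Their 70 probes filled 106 spots per array. For 35 of the 41 genes a probe was marked well above background by the scanner software on at least 1 array, and these 35, of 21256 names with that property, were compared between days.

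The samples were total RNA of E14.1 cells, a mouse embryonic stem (ES) cell line, on 3 one-colour arrays with 1 array per day. The day 0 cells were undifferentiated ES cells kept with BMP4 at 10 ng/ml and LIF at 1000 U/ml. The day 5 cells, labelled definitive endoderm, had been moved to collagen IV with activin A at 30 ng/ml in place of both factors. The day 7 cells, labelled early hepatic, had 2 further days with BMP4 at 30 ng/ml and bFGF at 10 ng/ml besides activin A. All groups share the cell line and an N2 and B27 medium. Day of culture and medium changed together, so their effects cannot be told apart.

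Most nuclear receptors have a zinc-finger DNA-binding domain and a ligand-binding domain that recruits coactivators or corepressors. Many bind as dimers with a retinoid X receptor (RXR) to repeats of the core motif AGGTCA, while others, such as the oestrogen-related receptors and the NR5A group, bind an extended form of it as monomers. In ES cells Esrrb, Nr5a2 and Nr0b1 belong to the network around Oct4 and Nanog, and in the adult liver receptors of this family control bile acid, lipid and drug metabolism.

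Values are log2 processed signals minus the 75th percentile of the array, so that 0 is the brightness of that percentile. A receptor is called higher or lower here where its signals differed at least 2-fold and the brighter one was marked well above background. With 1 array per day there was no replicate and no test, and every difference below is a difference between 2 arrays. The only spread that could be measured was that of probes printed as 10 spots, which gave a technical SD of a difference of 0.110 (log2). It was larger for faint probes. Over the spots of repeated probes at or below -4 the median SD was 0.175, 0.161 and 0.159 on days 0, 5 and 7. Over all repeated probes it was 0.080, 0.076 and 0.077. Faint signals also depend on how background is removed, so an alternative background correction (normexp) was tried. Its fit on the day 0 array was carried away by 5 spots, and a refitted form without them was added after the data were seen. The labelled cell types were checked against marker genes. The ES markers Pou5f1, Zfp42, Nanog and Klf4 were lower on both later days, and the endoderm markers Sox17, Foxa2, Cxcr4 and Gsc were higher on both. Of the hepatic markers, Afp differed by 9.77 (log2) between day 7 and day 0, while on the day 7 array the Alb probe was dim. Markers of other cells were also higher on the day 7 array than on day 5, beside 5.99% of all names. This held in 4 of 4 cases for extraembryonic endoderm, 3 of 4 for mesenchyme and 3 of 4 for heart and endothelium. The last 3 include Pecam1, which was below its day 0 signal on both later days (-4.88 on day 5, where it was dim, and -3.43 on day 7, log2). The mean log2 signal of the extraembryonic endoderm list was -1.48, -0.83 and 2.93 on days 0, 5 and 7, and that of the mesenchyme list was -3.86, -2.04 and 1.38. None of 4 neural markers was higher than on day 0, and Neurod1 was not well above background on days 5 and 7. The part these cells have in the receptor values was not tested, and in such mixed RNA fewer cells of a type and less RNA per cell cannot be told apart.

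The receptors that lay furthest below day 0, Esrrb, Nr5a2 and Nr0b1, belong to the ES cell network. Single members of other families, Rxrg, Nr2f2 (COUP-TFII), Nr4a2 and Thra, were above day 0 on both later days. Their families did not move as a whole: Rxrb, Nr2f6 and Thrb stayed within 2-fold, and Nr4a1 was lower. On the day 5 array 8 of the 35 receptors were called higher and 9 lower than on day 0, beside 16.5% and 16.1% of all 21256 names. On day 7, 7 were higher and 7 lower than on day 0, beside 16.2% and 19.1% of all names. Between day 5 and day 7, 3 were higher and 6 lower, beside 5.99% and 8.44%. In either direction the receptors' share was 48.6%, 40% and 25.7%, where all names gave 32.6%, 35.4% and 14.4%. Both comparisons with ES cells use the same day 0 array. The median difference of the compared receptors was -0.11, -0.02 and -0.08 (log2), and that of all names -0.11, -0.19 and -0.06. Receptors dim on some arrays entered only through the array on which they were bright. Over the 30 that were well above background on all arrays, 6 were higher and 7 lower on day 5, beside 15.7% and 15.1% of the 18150 names of that kind. In all, 19 of the 35 receptors differed at least 2-fold in some comparison, beside 44.2% of all names, and 16 in none.

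**Figure D1:**
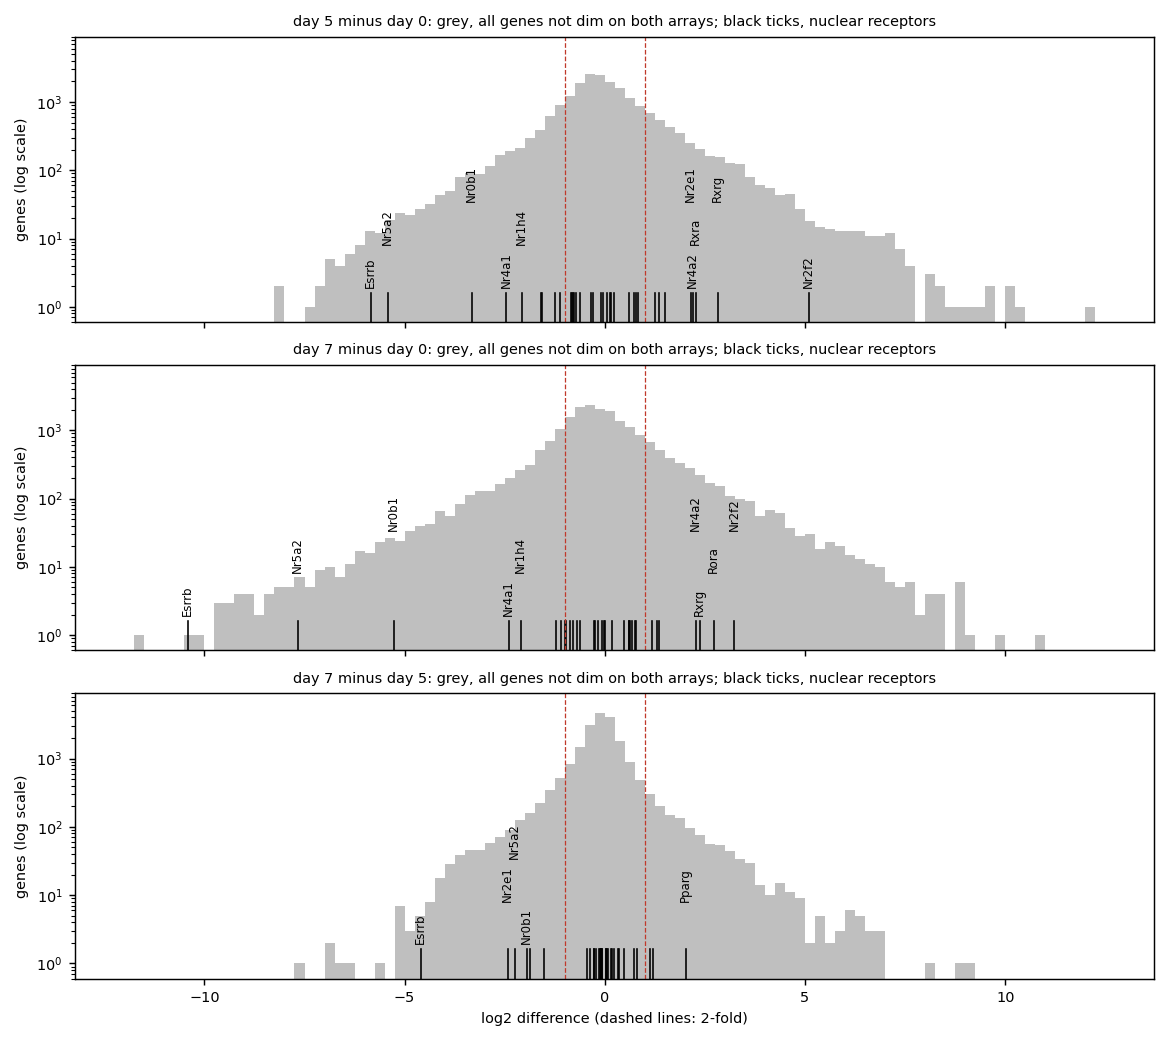
Histograms of the log2 difference of every gene compared (grey, gene number on a log axis) for day 5 over day 0, day 7 over day 0 and day 7 over day 5, with a black tick for each nuclear receptor and dashed lines at 2-fold. Esrrb, Nr5a2 and Nr0b1 lie in the lower tail of all 3 panels, and most other receptors lie within the bulk of the distribution.

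**Figure D2:**
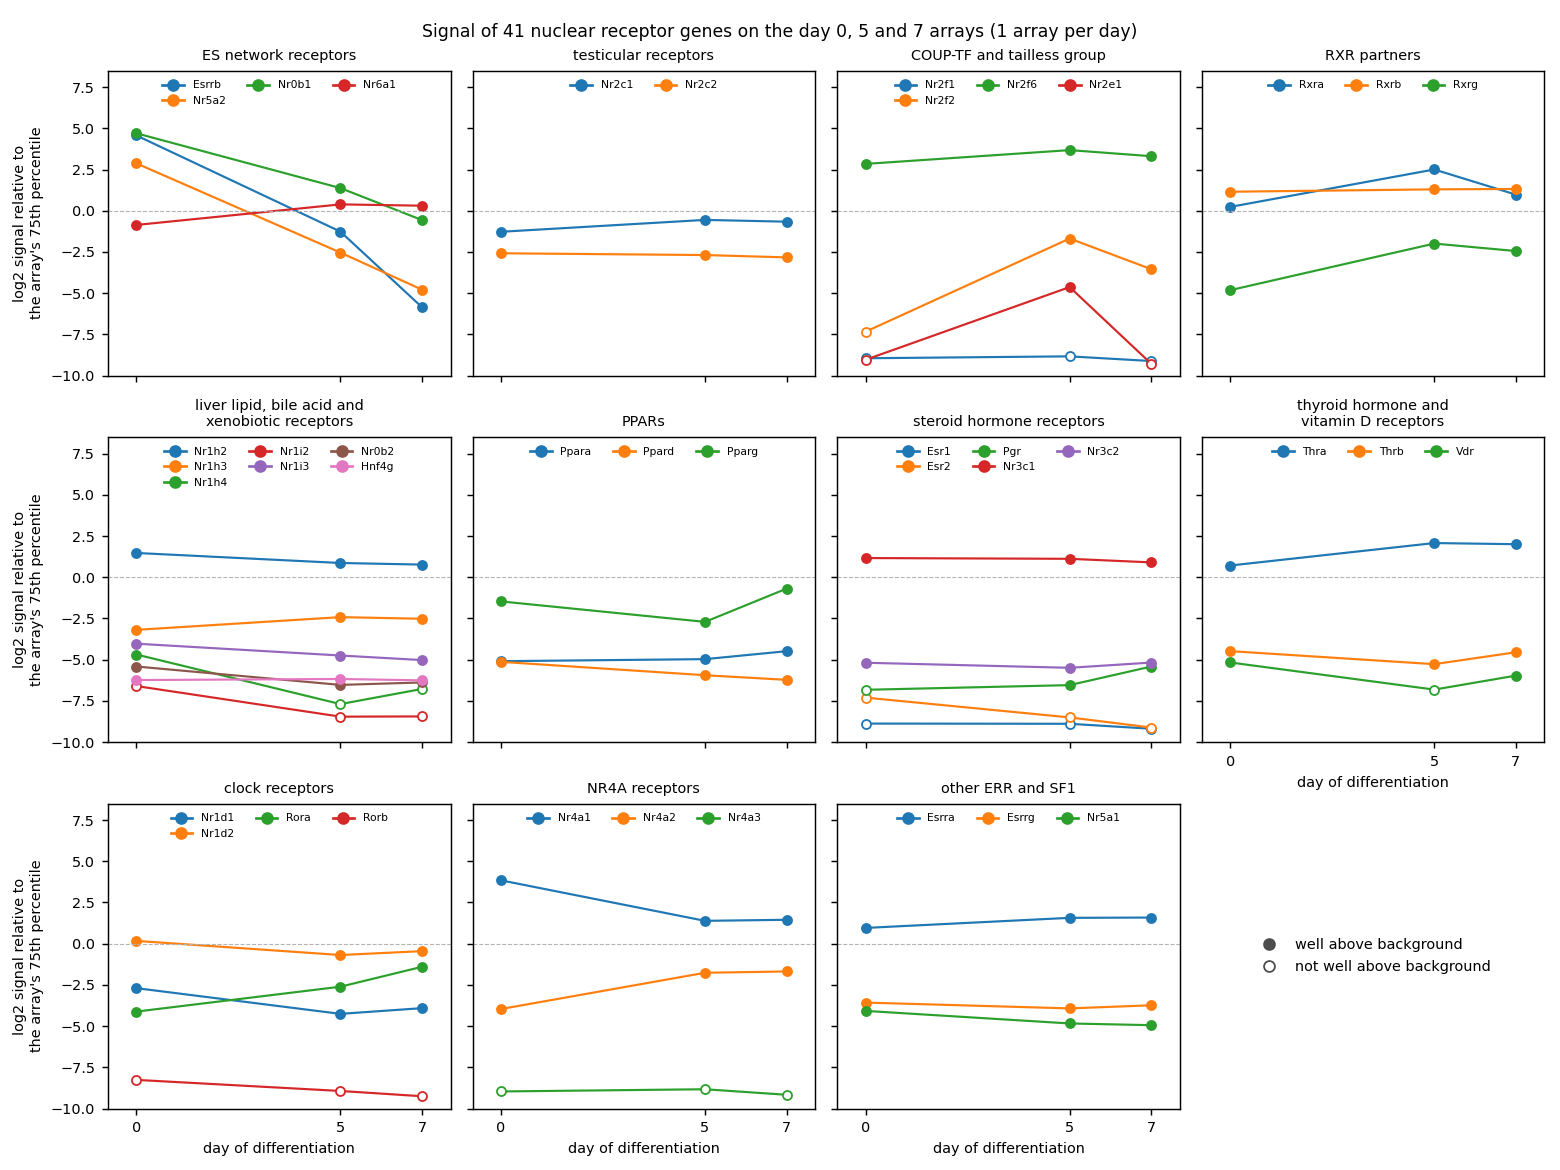
Log2 signal relative to the 75th percentile of the array (vertical axis) against day (horizontal axis) for the 41 receptors in 11 groups by role, 1 array per day; filled circles are well above background and open circles are not. Levels of different genes come from different probes, so only the course of each line is to be read. The ES network panel holds the lines that fall furthest from day 0 to day 7.

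Esrrb, Nr5a2 and Nr0b1 form the ES cell group, and all 3 were lower on day 5 than on day 0 and lower again on day 7. Esrrb, an orphan receptor that can replace other factors in reprogramming and maintains self-renewal, is shown first by the first 30 bases of the 60-base probes that measured it, since these did not give the same size of difference. The probe used lies at chr12:87862389-87862448 and the other at chr12:87856069-87856128 (mm9, plus strand), 6.26 kb apart. The authors' scanner files give both sequences.
Esrrb probe used: ttctgataatgacgttgtggctggaatgac
Esrrb other probe: caaaggacattgattattgctaaaggttag
The Esrrb probe used read 4.57, -1.27 and -5.85 on days 0, 5 and 7. It stayed well above background throughout, and its processed intensity was 37061, 852 and 35.5 units. Day 5 was 57.1-fold and day 7 was 1370-fold below day 0, and day 7 was 24.0-fold below day 5. Of all names compared, 1 lay further below day 0 on day 7. The other Esrrb probe read -1.55, -5.82 and -6.75, which is 19.4-fold and 36.8-fold below day 0 and within 2-fold between day 5 and day 7. Both probes thus put Esrrb far below its ES cell level, but the size of the day 7 difference was 1 probe's: with the median over probes it was -7.81 (log2). The difference between day 5 and day 7 was -4.59 as measured, -3.03 with the refitted normexp correction, -2.76 with the median over probes and -1.11 with the unrefitted normexp correction, which also gave -6.21 between day 7 and day 0.

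Nr5a2 (Lrh-1) binds the promoter of Oct4 in ES cells and controls bile acid synthesis genes in the liver. Its single probe (chr1:138740903-138740962, mm9, minus strand) read 2.87 on day 0, -2.54 on day 5 and -4.79 on day 7. That is 42.5-fold and 202-fold below day 0, and 4.75-fold lower on day 7 than on day 5, although the day 7 cells are the ones labelled hepatic. The day 7 against day 5 difference of -2.25 (log2) was -1.53 with the refitted normexp background correction and 0.0894, with no call and the other sign, with the unrefitted one. The unrefitted correction also left -4.53 of the -7.66 (log2) between day 7 and day 0.

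Nr0b1 (Dax1), an X-linked receptor without a DNA-binding domain that acts as a corepressor, read 4.70, 1.38 and -0.56 on days 0, 5 and 7. Its probe lies at chrX:83441169-83441228 (mm9, plus strand). Day 5 was 10.0-fold and day 7 was 38.4-fold below day 0, and day 7 was 3.84-fold below day 5. Nr6a1 (Gcnf) is the receptor known to repress Oct4 as ES cells differentiate, and it went the other way. It read -0.86, 0.39 and 0.31 on the arrays of days 0, 5 and 7, so that both later days were above day 0 (2.37-fold and 2.25-fold) and within 1.06-fold of each other. The unrefitted normexp correction gave 0.53 and 0.50 (log2) against day 0, under the 2-fold limit.

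The promoters of Esrrb, Nr5a2 and Nr0b1 are printed because these genes moved together, each as 300 bases from 250 before to 50 after a RefSeq gene start (GRCm38.p6), with the core motif AGGTCA in capitals where it was found. They lie at chr1:136960399-136960698 (minus strand, Nr5a2), chrX:86191525-86191824 (plus strand, Nr0b1) and chr12:86360867-86361166 (plus strand, Esrrb).
Nr5a2 promoter: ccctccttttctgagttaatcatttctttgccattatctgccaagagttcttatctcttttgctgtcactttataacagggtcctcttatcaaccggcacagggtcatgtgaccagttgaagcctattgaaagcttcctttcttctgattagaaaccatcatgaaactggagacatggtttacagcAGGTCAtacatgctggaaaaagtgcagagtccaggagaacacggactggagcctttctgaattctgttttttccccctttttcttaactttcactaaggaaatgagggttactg
Nr0b1 promoter: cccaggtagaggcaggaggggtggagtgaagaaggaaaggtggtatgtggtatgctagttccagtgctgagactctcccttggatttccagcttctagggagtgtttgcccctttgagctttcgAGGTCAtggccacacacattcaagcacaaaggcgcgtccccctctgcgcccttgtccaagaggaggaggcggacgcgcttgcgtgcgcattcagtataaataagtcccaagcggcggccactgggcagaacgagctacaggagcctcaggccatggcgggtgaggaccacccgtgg
Esrrb promoter: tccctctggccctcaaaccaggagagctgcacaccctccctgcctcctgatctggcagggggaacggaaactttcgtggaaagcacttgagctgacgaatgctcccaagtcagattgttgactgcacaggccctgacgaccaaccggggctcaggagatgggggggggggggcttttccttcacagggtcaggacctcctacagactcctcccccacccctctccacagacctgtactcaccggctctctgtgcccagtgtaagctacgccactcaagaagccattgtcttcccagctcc
Relative to the gene start, AGGTCA began at -64 in Nr5a2 and at -126 in Nr0b1, and the Esrrb window held none. RefSeq gives 2 start sites for Nr5a2 and 2 for Esrrb. The second Nr5a2 window did not hold the motif, and neither Esrrb window did. Searched on both strands, the motif was present in 10 of 53 promoters of the receptors (18.9%), which is close to the 16.3% of all 32851 promoters of the same length. Longer forms contain it. The ERR and NR5A site TCAAGGTCA was in 0 of the 53 and 0.423% of all, and the NR4A site AAAGGTCA was in 2 of the 53, those of Rxra and Rxrg, and 1.51% of all. The forkhead core TGTTTAC was found in 2 (Nr2f1 and Rxrb, beside 3.65% of all), the octamer ATGCAAAT in 0 (beside 1.74%) and the E-box CACGTG in 4 (Esr2, Nr0b2, Nr1i3 and Thrb, beside 7.15%). RefSeq promoters were matched for 37 of the 41 genes, and Hnf4g, Nr3c1, Nr5a1 and Thra had no match. A match describes these letters only.

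The factors that work with Esrrb, Nr5a2 and Nr0b1 in ES cells were lower as a group. Of 11 such partners, 10 were lower on day 5 and 9 on day 7 than on day 0, beside 16.1% and 19.1% of all names. None was higher, and the medians were -3.96 and -4.04 (log2). Zfp42 read 6.65, 1.24 and -2.49 on days 0, 5 and 7, and Dppa3 read 2.28, -2.43 and -5.79. These genes, like Esrrb, were lower again on day 7. Others of the list were not: Tbx3 read 4.28, 1.22 and 4.71, and Klf4 read 5.70, 0.19 and 3.11, both higher on day 7 than on day 5. Klf2 stayed within 2-fold in each comparison.

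The COUP-TF receptors are orphan receptors of mesenchyme and organ development, and 1 of them, Nr2f2 (COUP-TFII), was the furthest above day 0 of the 35 receptors on both later days. Its probe (chr7:77498375-77498434, mm9, minus strand) was not well above background on day 0, at -7.33, and read -1.68 on day 5 and -3.54 on day 7. Against day 0, Nr2f2 was therefore higher by at least 34.3-fold (day 5) and at least 9.43-fold (day 7), and from day 5 to day 7 it was 3.63-fold lower. The other Nr2f2 probes gave at least 13.02-fold and at least 3.09-fold for day 5, and with the median over probes the day 7 difference was 1.61 (log2). The refitted normexp correction gave 2.84 and 1.31 for the days, and the unrefitted one gave no call in any of the comparisons (-0.50 between day 5 and day 7). Nr2f1 (COUP-TFI) was not well above background on any array, at -8.95, -8.83 and -9.11. Nr2f6, the third member of the group, read 2.84, 3.68 and 3.31 and stayed within 2-fold, its day 5 difference of 0.84 reaching 1.00 with quantile normalization and 1.03 in the authors' deposited value table. Nr2e1 (Tlx), the tailless receptor of neural stem cells, was seen on the day 5 array only. It read -9.04, -4.63 and -9.28, which made day 5 at least 4.45-fold higher than day 0 and day 7 at least 5.31-fold lower than day 5. With the refitted correction these were 0.97 and -1.38 (log2), and with the unrefitted one neither was called.

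The testicular receptors Nr2c1 (TR2) and Nr2c2 (TR4) are orphan repressors of widespread expression. Nr2c1 read -1.27, -0.55 and -0.66, within 2-fold in each comparison, while 1 of its other probes differed 2.03-fold and 2.31-fold from day 0. Nr2c2 read -2.58, -2.69 and -2.83 and differed by at most 1.19-fold.

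The retinoid X receptors are the shared dimer partners of the liver, thyroid, vitamin D and PPAR receptors. By the probes used Rxrg and Rxra were called higher on day 5, but for Rxra the other probe did not give that direction. Without Rxra, 1 of the 3 was higher. Rxrg read -4.82 on day 0, -1.99 on day 5 and -2.44 on day 7, which is 7.09-fold and 5.18-fold above day 0. With the unrefitted normexp correction both Rxrg differences turned negative (-0.86 and -0.72), and with the refitted one they were 1.94 and 1.52 (log2). Rxrb read 1.15, 1.30 and 1.32 and differed by at most 1.12-fold, and its second probe was within 2-fold as well. Rxra was measured by probes that disagreed, and their first 30 bases are printed for that reason. The probe used lies at chr2:27618411-27618470 and the other at chr2:27615316-27615375 (mm9, plus strand), 3.04 kb apart.
Rxra probe used: aagaaacaacaacatgagaggagagacaaa
Rxra other probe: gtccttatgggcccaaaagatgcatcacca
The Rxra probe used read 0.23, 2.50 and 0.98, so that day 5 was 4.82-fold above day 0 and day 7 was 2.88-fold below day 5. The other read -1.58, -2.54 and -3.64, which put day 7 at 4.17-fold below day 0 and day 5 within 2-fold of it. No direction against day 0 can therefore be given for Rxra as a gene, and with the median over probes its day 5 difference was 0.65 (log2). The probes gave the same direction only between day 5 and day 7, where both were lower on day 7.

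Of 7 receptors of liver lipid, bile acid and drug metabolism, 6 could be compared. None of these was higher on either later day than on day 0, beside 16.5% (day 5) and 16.2% (day 7) of all names. So few receptors do not set the group apart from all names. The liver X receptors sense oxysterols. Nr1h2 (LXRβ) read 1.47, 0.86 and 0.77, and Nr1h3 (LXRα), the form of liver and macrophages, read -3.19, -2.42 and -2.52. Both stayed within 2-fold, in opposite directions. Nr1h4 (FXR), the bile acid receptor, was well above background on day 0 only. It read -4.69 there, -7.70 on day 5 and -6.78 on day 7, or at least 4.22-fold and at least 4.25-fold lower, bounds that were -0.96 and -0.97 (log2) with the refitted normexp correction. Nr0b2 (SHP), a receptor without a DNA-binding domain that FXR induces, read -5.42, -6.53 and -6.38. It was 2.17-fold lower on day 5 and within 2-fold on day 7, and the day 5 difference was -0.42 (log2) with the refitted correction. Nr1i3 (CAR), a sensor of foreign compounds, read -4.03, -4.75 and -5.03, just inside the 2-fold limit on day 7 (1.99-fold lower). Nr1i2 (PXR), its relative, was not well above background on any array, at -6.60, -8.46 and -8.44. Hnf4g, the paralogue of Hnf4a, read -6.24, -6.17 and -6.26 and differed by at most 1.06-fold. These signals lay near the lowest ones marked well above background on the arrays (-6.78, -6.76 and -7.04). The other Hnf4g probe was not well above background on any array.

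Genes that these receptors are known to control went both ways. For every list from here on, the shares of all names against day 0 are the same. They are 16.5% higher and 16.1% lower on day 5, and 16.2% and 19.1% on day 7. Among 10 LXR targets, 1 was higher and 2 were lower on day 5 than on day 0, with a median of 0.21 (log2), and 2 and 3 on day 7, with a median of 0.67. The cholesterol exporter Abca1 read 0.59, -2.12 and -1.47, and Mylip (Idol), which degrades the LDL receptor, was 5.92-fold and 6.07-fold above day 0. Abcg1 read 0.23, -0.65 and -3.25, and Apoe read 6.32, 6.15 and 7.69, so that these targets moved apart after day 5. Of 10 FXR and bile acid genes 6 could be compared, of which 3 were lower on day 5 and 4 on day 7 than on day 0. None of the 6 was higher, beside 16.5% and 16.2% of all names, and the medians were -1.47 and -1.31. The phospholipid exporter Abcb4 read 1.79, -1.48 and 0.43, and the bile acid exporter subunit Slc51a (named Osta in the files) read -3.26, -6.39 and -6.06. Cyp7a1, the rate-limiting enzyme of bile acid synthesis, read -5.99, -6.14 and -5.95 and did not differ 2-fold. Of 10 PXR and CAR targets 8 could be compared. On day 5, 2 were higher and 3 lower than on day 0, and on day 7, 2 were higher and 2 lower. Between day 5 and day 7, 4 were higher and none lower, beside 5.99% and 8.44% of all names. Of these 4, Abcc2 and Cyp2c29 were within 2-fold of day 0 on day 7 (0.68 and 0.50, log2). Cyp3a13 read -4.63, -1.69 and -0.15, above day 0 on both days, and the organic anion exporter Abcc2 read -4.53, -8.84 (not well above background) and -3.85.

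The PPARs sense fatty acids, and each of the 3 followed a course of its own. Pparg, the receptor of fat cell differentiation, was printed as 10 spots and read -1.47 ± 0.048, -2.71 ± 0.116 and -0.69 ± 0.078 on days 0, 5 and 7. The SD is over the spots kept on an array (10, 9 and 10 for Pparg), so it is technical. Pparg was 2.36-fold lower on day 5 than on day 0 and 4.05-fold higher on day 7 than on day 5, and within 2-fold between day 0 and day 7. Ppara, the receptor of liver fat oxidation, was also printed as 10 spots and read -5.09 ± 0.124, -4.97 ± 0.147 and -4.49 ± 0.121. The Ppara values stayed within 2-fold, the day 7 value lying 1.52-fold above day 0. Ppard, the broadly expressed form, read -5.13, -5.94 and -6.22. Its 2.13-fold lower value on day 7 than on day 0 was under 2-fold with quantile normalization (-0.94, log2), in the authors' deposited value table (-0.91) and with the refitted normexp correction (-0.59).

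Of 13 PPAR targets 12 could be compared. On day 5, 1 was higher and 5 were lower than on day 0, and on day 7, 5 were higher and 4 lower, with medians of 0.00 and 0.11 (log2), the first of which comes from genes dim on both arrays. Angptl4, an inhibitor of lipoprotein lipase, read 3.29, -1.20 and -2.06, and the fatty acid importer of mitochondria, Cpt1a, read 1.18, -0.26 and -0.98. Fabp1, the fatty acid carrier of liver, gut and yolk sac, was well above background on day 7 only, at -2.76, and at least 16.2-fold above day 0. Genes of the list thus lay on both sides of the ES cell level.

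Among 5 steroid hormone receptors only 3 could be compared. Nr3c1, the glucocorticoid receptor, read 1.16, 1.12 and 0.90, and all 4 of its probes stayed within 2-fold in each comparison. Nr3c2, the mineralocorticoid receptor, read -5.19, -5.49 and -5.18 and differed by at most 1.25-fold, while its other probes were not well above background on any array. The oestrogen receptors Esr1 (-8.88, -8.89 and -9.19) and Esr2 (-7.30, -8.50 and -9.12) were not well above background on any array. Pgr, the progesterone receptor, read -6.83 on day 0, not well above background, -6.54 on day 5 and -5.42 on day 7. On day 7 Pgr was thus above day 0 by at least 2.57-fold and above day 5 by 2.18-fold. These differences were 0.11 and 0.16 (log2) with the refitted normexp correction, the first was not called with the unrefitted one, and its other probe was not well above background on any array.

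Of 8 glucocorticoid targets 1 was higher and 2 were lower than on day 0 on each later day, with medians of -0.60 and -0.40 (log2). Tsc22d3 (Gilz), an anti-inflammatory mediator, read -2.32, 0.50 and 0.75. The co-chaperone Fkbp5, a classical target, read 0.55, -2.07 and -2.88, and the Krüppel-like factor Klf9 read 2.62, 0.93 and 0.46. The other 5 of the 8 stayed within 2-fold of day 0 on each later day. Klf9 is also on the list of thyroid hormone genes, and the part of Nr3c1 in these differences was not tested. The chaperones that hold steroid receptors were lower or within 2-fold. Of 6, 3 were lower on day 5 and 2 on day 7 than on day 0, with medians of -0.89 and -0.93. Fkbp5 was the furthest below, and Hsp90aa1, which read 7.90, 6.90 and 6.89, lay at the 2-fold limit. Steroid synthesis genes had 2 of 9 higher on day 5, Inha (-4.48, -1.91 and -2.30) and Hsd3b1 (-6.43, -5.07 and -3.31), and none lower. On day 7 the same 2 were higher than on day 0, and Cyp11a1, which makes the first steroid precursor, was at least 4.78-fold lower.

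Thyroid hormone receptor genes differed from each other. Thra, the widely expressed form, read 0.71, 2.07 and 2.00, or 2.57-fold and 2.45-fold above day 0. Its other probe read -2.64, -0.85 and -0.90 (3.45-fold and 3.32-fold), so that both probes were higher on both days. Thrb, the main form in adult liver, read -4.48, -5.27 and -4.55 and stayed within 2-fold, the nearest to the limit being 1.73-fold lower on day 5. Of 9 thyroid hormone genes 7 could be compared. The list had 1 gene higher and 3 lower on day 5, and 1 and 4 on day 7, than on day 0, with medians of -0.65 and -1.21 (log2). The corepressor Hr, a target, read -3.65, -6.37 and -6.80.

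Vdr, the vitamin D receptor, read -5.17 on day 0, -6.82 on day 5 (not well above background) and -5.97 on day 7. It was at least 3.02-fold lower on day 5 than on day 0, a bound that was -0.61 (log2) with the refitted normexp correction, and within 2-fold on day 7. Of 7 vitamin D genes 6 could be compared. On day 5, 2 were higher and 2 lower than on day 0, and 3 and 2 on day 7, with medians of -0.25 and 0.69. The intestinal calcium-binding protein S100g read -3.95, -1.92 and 1.00, the calcium channel Trpv6 read -6.29, -3.54 and -4.39, and the catabolic enzyme Cyp24a1 read -4.81 on day 0 and was not well above background later. Gc, the serum carrier of vitamin D, read -4.41, -6.00 and 0.72, higher on day 7 than on the other days. As processed here, genes of the list thus lay on both sides of day 0, and the part of Vdr in this was not tested. With the refitted correction 0 of them were called lower than day 0 on either later day. With the unrefitted one 0 were higher and 5 lower on day 5.

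The clock receptors act in the feedback loop of the circadian clock, where REV-ERB receptors (Nr1d1 and Nr1d2) repress and ROR receptors activate Arntl. Rora was the only receptor called higher in all 3 comparisons. It read -4.12 on day 0, -2.61 on day 5 and -1.40 on day 7, which is 2.85-fold and 6.57-fold above day 0 and 2.31-fold above day 5. A second Rora probe, 40 bases away, read -4.64, -2.45 and -2.04, with the last step within 2-fold, and the day 7 against day 5 difference was 0.57 (log2) with the median over probes. With the unrefitted normexp correction the differences from day 0 turned to -1.38 and -0.10, and with the refitted one they were 1.07 and 2.11. Rorb was not well above background on any array (-8.26, -8.93 and -9.25).

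Nr1d1 (REV-ERBα) read -2.70, -4.26 and -3.91, or 2.95-fold and 2.32-fold below day 0. The other Nr1d1 probes read -4.03, -4.25 and -4.46, and -4.02, -4.72 and -4.68, all within 2-fold. The median over probes was -0.24 and -0.44 (log2), so the lower Nr1d1 signal was that of a single probe. Nr1d2 (REV-ERBβ) read 0.17, -0.69 and -0.45 and stayed within 2-fold, up to 1.81-fold lower. Thra and Nr1d1 are neighbours on chromosome 11, on opposite strands and with their nearest probes 4110 bases apart (mm9), yet Thra was above and Nr1d1 below day 0 by the probes used. Thrb and Nr1d2 lie likewise on chromosome 14, with 168 kb between probes, and both stayed within 2-fold. Nr6a1 and Nr5a1 share a strand on chromosome 2, with 30.3 kb between probes, and of these Nr6a1 alone was called higher.

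Among 13 clock partners 11 could be compared, and 3 were higher and 2 lower on day 5, and 4 and 2 on day 7, than on day 0, with medians of 0.38 and 0.30 (log2). Arntl (Bmal1), the gene that REV-ERB and ROR receptors regulate, read 0.43, -1.82 and -1.37, and its partner Clock read -0.09, -1.76 and -1.09. Per2, a repressor of the loop, read -4.12, 0.43 and -0.29. Arntl and Clock were thus below their ES cell signals on both days while Per2 was above. Of the 11 partners, 6 on day 5 and 5 on day 7 stayed within 2-fold of day 0, Per1 among them. The sources used here do not say at what time of day the cells were taken.

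The NR4A receptors are rapidly induced by growth factors and act without a known ligand. Nr4a1 (Nur77) and Nr4a2 (Nurr1) moved in opposite directions. Nr4a1 read 3.84 on day 0, 1.38 on day 5 and 1.45 on day 7, or 5.49-fold and 5.25-fold lower. Nr4a2 read -3.96, -1.76 and -1.69, or 4.59-fold and 4.85-fold higher. Neither differed by more than 1.06-fold between day 5 and day 7. With the unrefitted normexp correction the Nr4a2 differences turned to -0.69 and -0.29 (log2), and with the refitted one they were 1.67 and 1.76. Nr4a3 (Nor1) was not well above background on any array, at -8.96, -8.83 and -9.17. Other immediate early genes, induced by the same kind of stimulus, had 5 of 11 higher and 0 lower on day 5, and 3 higher and 1 lower on day 7, than on day 0, with medians of 0.97 and -0.07. Jun read -3.05, 1.13 and 0.56, Egr1 read 0.45, 2.07 and 0.38, and Fos read -2.76, -1.29 and -1.79. The other 6 genes of the list stayed within 2-fold on day 5.

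Of the other oestrogen-related receptors, regulators of mitochondrial energy genes, Esrra read 0.96, 1.57 and 1.58 and stayed within 2-fold by both its probes (1.53-fold and 1.55-fold higher by the probe used). Esrrg was measured by probes that disagreed, and their first 30 bases follow. The probe used lies at chr1:190035037-190035096 and the other at chr1:190038118-190038177 (mm9, plus strand), 3.02 kb apart.
Esrrg probe used: ccctcccatcctgcacgttgaaaagggaag
Esrrg other probe: ttagccatgcaatttgcagttttattttcc
By the Esrrg probe used the signal was -3.57, -3.93 and -3.74, within 1.28-fold throughout. By the other it was -8.89 on day 0 (not well above background), -4.90 on day 5 and -3.49 on day 7, or at least 3.68-fold and at least 9.81-fold higher than on day 0. Esrrg was therefore counted as not different, but would be higher by 1.82 and 2.62 (log2) with the median over probes. Of 10 energy metabolism targets of these receptors, 1 was lower than day 0 on both later days, Acadm (4.28, 3.15 and 3.09). On day 7, 1 was higher than on day 0, Pdk4 (-1.56, -1.55 and -0.24). The medians were -0.46 and -0.44 (log2). With quantile normalization and in the authors' deposited value table Acadm was not called lower on either day. Nr5a1 (Sf1), the receptor of adrenal and gonad and the closest relative of Nr5a2, read -4.08, -4.84 and -4.94 and stayed within 2-fold, up to 1.82-fold lower.

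**Figure D3:**
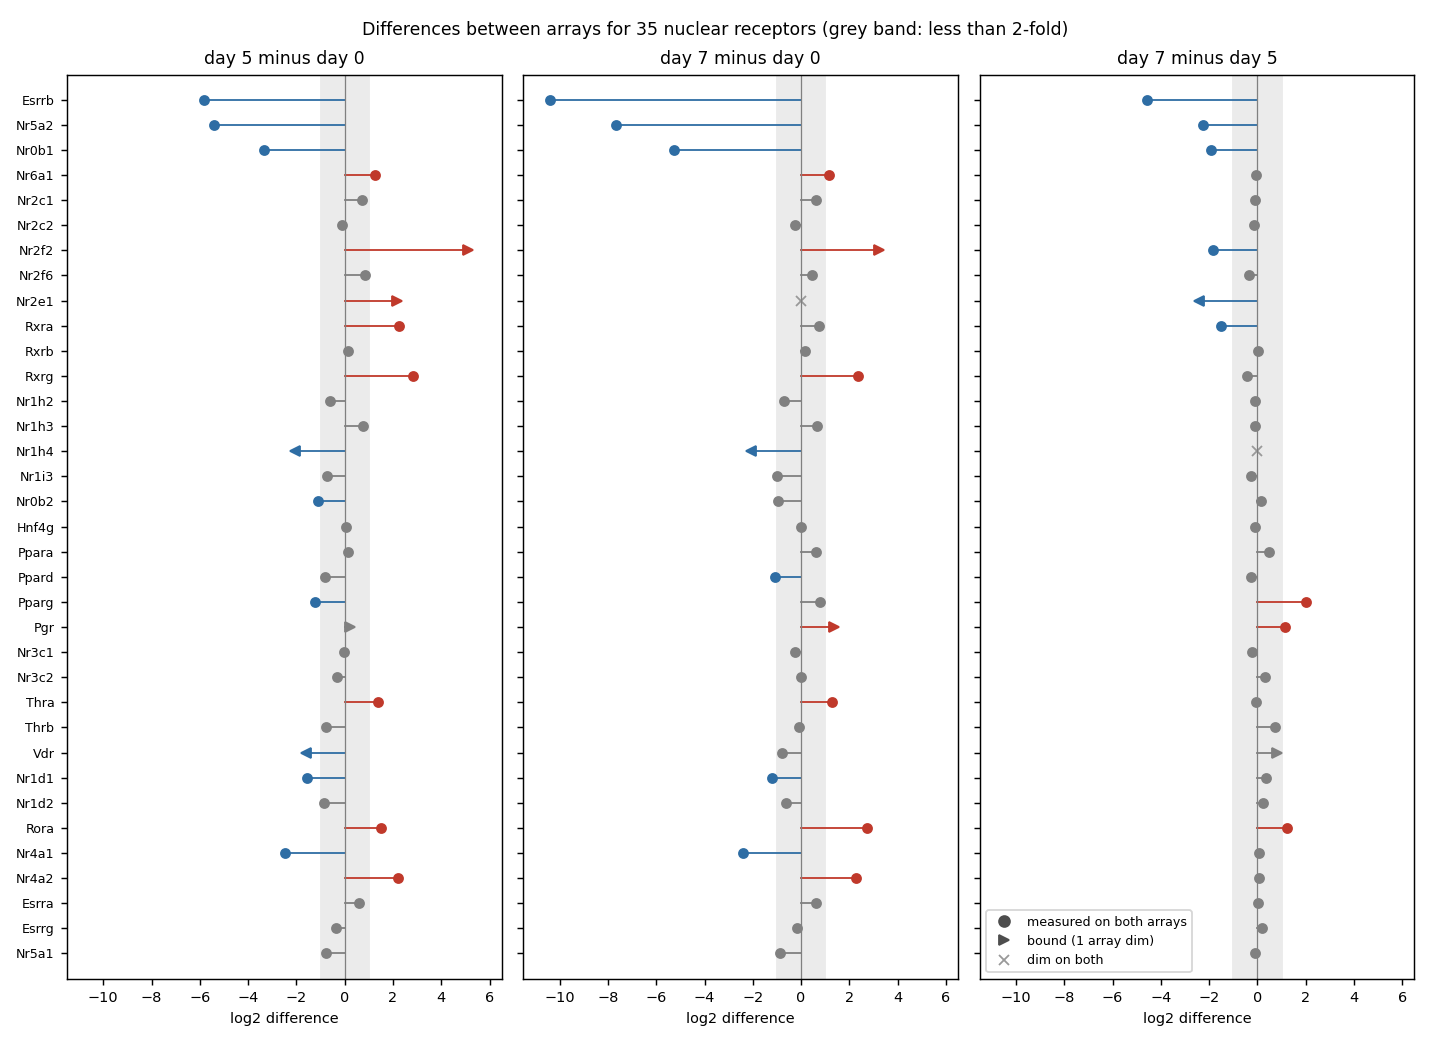
Log2 difference (horizontal axis) of each of the 35 compared receptors for day 5 minus day 0, day 7 minus day 0 and day 7 minus day 5; circles are measured on both arrays, triangles are bounds, crosses are dim on both arrays, and the grey band marks less than 2-fold. Esrrb, at -5.83, -10.42 and -4.59, is furthest to the left in all 3 panels, and Nr2f2 is furthest to the right in the first 2.

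**Figure D4:**
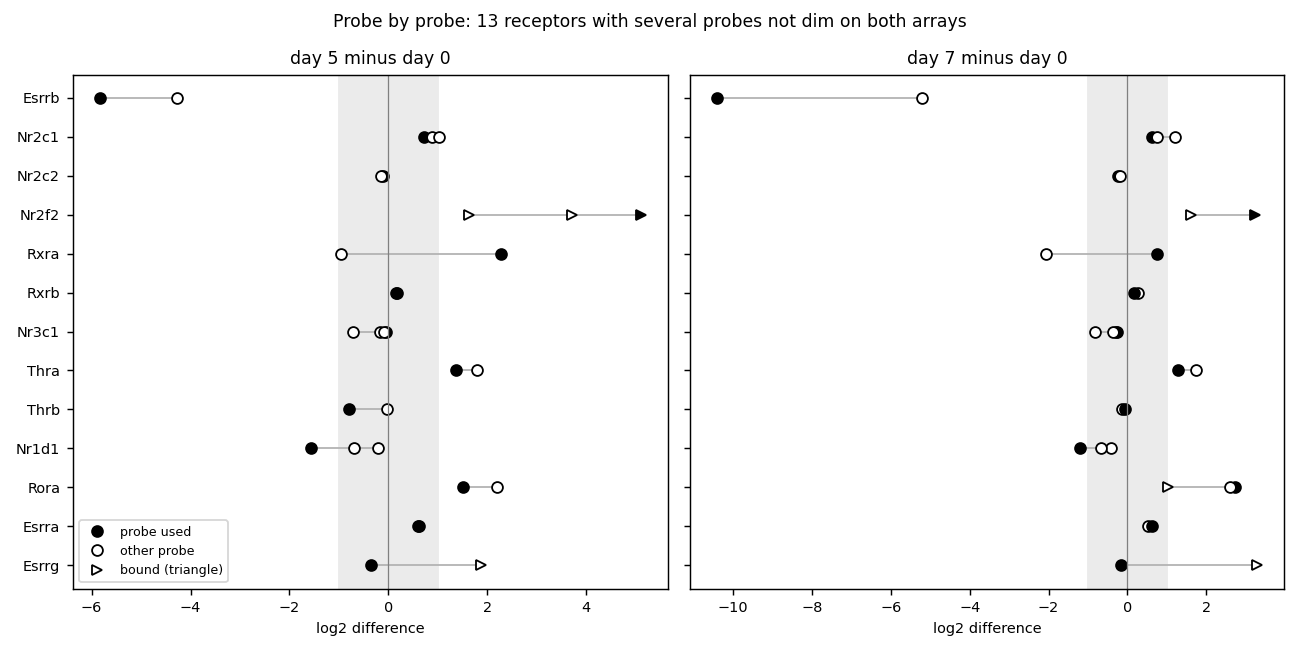
Log2 difference from day 0 (horizontal axis) on day 5 and day 7 for the 13 receptors with several probes that were not dim on both arrays; filled symbols are the probe used, open symbols the others, triangles are bounds and the grey band marks less than 2-fold. The Rxra and Esrrg symbols lie on both sides of 0, while those of Thra, Nr2f2 and Esrrb lie on 1 side.

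Probes of 1 receptor were compared where there were several. Of the 13 receptors with 2 or more probes not dim on both arrays, 9 received the same call from all of them on day 5 and 9 on day 7, each against day 0, and 10 did between the later days. Esrrg, Nr1d1, Nr2c1 and Rxra were the exceptions against day 0, and Esrrb, Esrrg and Rora between day 5 and day 7. For 22 receptors a single probe was present, so that this comparison could not be made, among them Nr5a2, Nr0b1, Nr6a1, Rxrg, Nr4a1 and Nr4a2.

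Coregulators are the proteins that receptors recruit to act on chromatin. Of 14, 1 was higher and 2 lower on day 5, and 2 and 2 on day 7, than on day 0, with medians of 0.00 and 0.02 (log2), and none differed between day 5 and day 7. The corepressor Nrip1 (RIP140) read -1.13, 1.15 and 0.22. Ncoa3, a coactivator that works with Esrrb in ES cells, read 2.52, 0.30 and 0.60, and Ncoa1 was lower by 2.44-fold and 2.95-fold. The corepressor Ncor1 (4.52, 3.78 and 3.55) stayed within 2-fold.

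**Figure D5:**
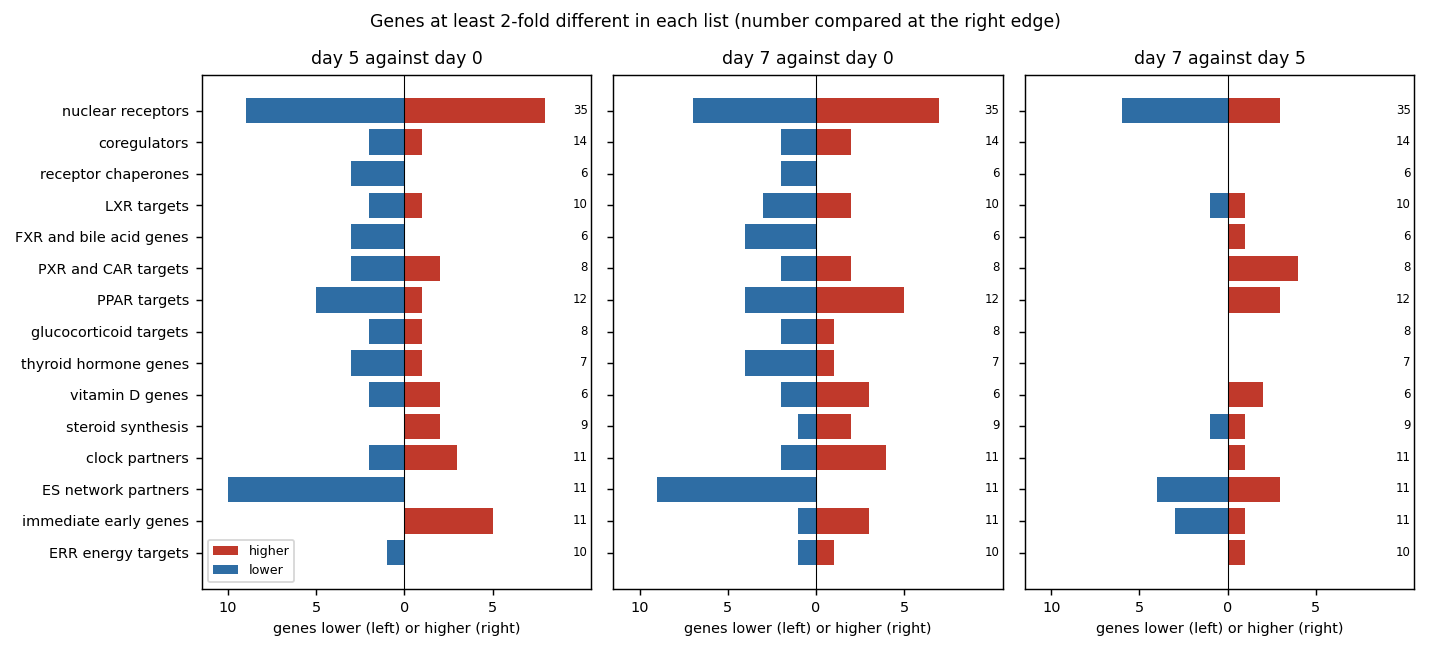
Number of genes at least 2-fold lower (blue, left) or higher (red, right) in the receptor set and in each of 14 lists of pathway genes, for day 5 over day 0, day 7 over day 0 and day 7 over day 5, with the number compared at the right edge. The ES network partners have 10 and 9 lower genes and none higher in the first 2 panels, and the PXR and CAR targets have 4 higher and none lower in the last.

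By course over the 3 days, Esrrb, Nr5a2 and Nr0b1 were lower at each step. Nr1h4, Nr1d1 and Nr4a1 were lower than day 0 on both later days and did not differ between these. Nr6a1, Rxrg, Thra and Nr4a2 were higher on both and did not differ between them by 2-fold. Nr2f2 was highest on day 5, as were the probes used for Rxra and Nr2e1. Pparg was lowest on day 5. The 16 receptors within 2-fold throughout were Nr2c1, Nr2c2, Nr2f6, Rxrb, Nr1h2, Nr1h3, Nr1i3, Hnf4g, Ppara, Nr3c1, Nr3c2, Thrb, Nr1d2, Esrra, Esrrg and Nr5a1. Between day 5 and day 7, when BMP4 and bFGF were added, 26 of the 35 compared receptors stayed within 2-fold or were dim on both arrays. The remaining 25.7% differed at least 2-fold, beside 14.4% of all names.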

How the data were processed

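Total RNA was hybridised to 3 one-colour Agilent arrays, 1 per day. Per the file headers, the authors used Agilent Feature Extraction 10.5.1.1 on the scans, spatial detrending was on, and mm9 (NCBI37) is the build of the probe positions. The deposited scanner files hold intensity per spot, and the processed signal was used. The authors' deposited value table holds log2 values (median 7.1678 in each of the 3 columns, which correlated with the scanner signals of the same array at 0.9998 or above). They are on a log2 scale, uncentred per gene, and no source used here names the step that made the arrays equal.

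There were 43379 gene spots of 41174 probes per array. Spots marked as outliers were left out (149, 104 and 131 on days 0, 5 and 7), no spot was saturated, and 70.9 to 71.7% of spots were well above background. Log2 processed signal minus the 75th percentile of the array (1564, 2051 and 2053 intensity units) was averaged over the spots of a probe. A probe was well above background when more than 50% of its spots were so marked. A gene was read through 1 probe, the one well above background on more arrays than its others, with ties going to the brightest. A dim value was set to the higher of itself and the lowest signal among probes well above background, which gives "at least N-fold", and genes dim on both arrays count as 0 in medians. Such a bound holds for the background treatment used. With the refitted normexp correction the differences of Nr2f2 and Nr1h4 from day 0 were smaller than their bounds. All 41 members are named, and of each pathway list up to 4 genes at least 2-fold higher and up to 4 lower, by size. Genes named beyond that, Cyp7a1, Klf2, Ncor1 and Neurod1, were chosen after their values were seen. Some list genes within this rule are left out here. The members, lists and markers were chosen with earlier results of these data known. The number of arrays limits the precision, and samples from separate cultures were not compared.

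Genes were named as in the files. Naming through RefSeq accessions or symbols changed the names of 0 member probes. Promoters come from RefSeq (GRCm38.p6) and were matched by symbol. Alternatives were normexp (offset 50, limma 3.58.1 in R 4.3.3), quantile normalization, median centring, the deposited value table, the median over probes, other treatments of dim probes, 1.5-fold and 3-fold limits, outlier spots kept and other gene names. Calling was tested on simulated data with known changes. These exceeded the 2-fold limit, were placed in brighter genes only and carried spot noise only. The simulation therefore checks the calling step and does not cover dim genes, background correction or differences between cultures. Tables were made with Python 3.11.15.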

Additional observations from a re-analysis of the deposited data

How the results depend on the processing

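No paired analysis was possible because each day had 1 array. Of the 40 receptor differences of at least 2-fold, 15 passed the 2-fold limit and 28 kept their sign under every alternative that gave a value, other limits aside. Leaving out the normexp correction as planned, these numbers were 28 and 39. On the day 0 array that correction was carried away by 5 spots whose background exceeded their signal, which moved the fitted background mean to -1242 from 0.431 without them, and 1 such spot on day 7 moved it to -344 from -2.97. With it, 3 receptors were higher and 20 lower on day 5, 1 and 17 on day 7 than on day 0, and 14 and 3 on day 7 than on day 5, while of all names 8.19% were higher and 43.8% lower, 7.41% and 39.2%, and 28.8% and 2.07%. It reversed Rxrg (-0.86 and -0.72), Rora (-1.38 and -0.10) and Nr4a2 (-0.69 and -0.29) against day 0, and Nr5a2 (0.0894) between day 5 and day 7. With the refitted normexp correction, 4 receptors were lower on day 7 than on day 0 (14.3% of all names). With the median over probes, 1 was higher on day 7 than on day 5 (5.68% of all names). A 1.5-fold limit gave 12 higher and 15 lower on day 5, 13 and 13 on day 7, and 5 and 6 on day 7 than on day 5, beside 24.0% and 27.7%, 23.8% and 32.9%, and 10.7% and 16.2% of all names. A 3-fold limit gave 5 and 6, 4 and 5, and 1 and 5, beside 9.88% and 8.30%, 9.997% and 10.03%, and 3.30% and 4.03%. Fewer or more calls follow from the limit itself, and for the other settings the cause was not tested. Nr2f2, Nr2e1, Nr1h4, Pgr and Vdr have no value when only probes well above background on all arrays are used.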
